A study of Mus musculus with 192 samples.

Results

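The 10 genes described here carry out and control the handling of calcium, phosphate and vitamin D by the kidney. They were taken by name, with earlier results of these data known, and all 10 were found among the 54752 genes of the table. They are the vitamin D hydroxylases Cyp27b1 and Cyp24a1, the receptors Vdr, Kl and Casr, the phosphate transporters Slc34a1 and Slc34a3, and the calcium transport genes Trpv5, Calb1 and S100g. The study asked how space flight changes gene expression, and how far the transcription factor Nrf2 takes part, in 192 RNA samples from 9 tissues of male mice. WT and Nrf2-KO mice on a C57BL/6 background, labelled as 12 weeks old, either stayed for about a month on the International Space Station (FL_WT, FL_KO) or lived in the same housing units on the ground (GC_WT, GC_KO). Mice were housed singly. Kidney RNA came from 3 mice in each of the 4 groups.

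Flight mice were dissected in the United States after return to Earth, and ground mice in Japan in another season. Both had behavioural tests before dissection. The paper states that flight mice were changed to a flight food before launch. For ground mice it names the chow that flight mice ate before that change, so diet may have differed too. Place, season, landing, any difference in diet and flight therefore cannot be told apart in any comparison below. A mouse number given to both a flight and a ground mouse does not mean the same animal.

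The kidney converts vitamin D into its active hormone, calcitriol. CYP27B1 in proximal tubule cells makes calcitriol, and CYP24A1 breaks it down. As background, parathyroid hormone and low phosphate or calcium raise the production side, whereas FGF23, acting through Klotho, and calcitriol itself lower production and raise breakdown. Calcitriol acts through the vitamin D receptor on genes of calcium transport in the distal nephron, where calcium enters cells through TRPV5 and is carried across them by calbindins. Most filtered phosphate is taken back in the proximal tubule by the transporters that Slc34a1 and Slc34a3 encode.

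Each kidney sample held 13.8 M to 14.6 M expected counts, and 15114 genes passed the filter on low counts, including all 10 genes described here. Levels are given as TPM, the abundance of transcripts after scaling for transcript length and library size, and differences as log2 fold changes of counts from edgeR with their standard error (SE). A gene was called when its p-value, adjusted over all genes tested, was under 0.05. Nfe2l2, which encodes Nrf2, measured 53.4 ± 4.5 TPM in GC_WT and 63.1 ± 6.8 TPM in FL_WT kidneys but 24.6 ± 2.6 TPM in GC_KO and 31.1 ± 3.0 TPM in FL_KO kidneys (SD, n = 3 each), and no Nrf2-KO kidney reached a WT kidney, as held for 1.65% of all genes tested. The kidney label fitted the markers of its segments. Summed TPM of 6 markers of the S1 and S2 proximal tubule ranged from 946 to 1285, and that of 7 markers of connecting tubule and principal cells from 3053 to 4310. Markers of the adrenal cortex summed to at most 1.17 TPM with Cyp11b1 at 0, and those of skeletal muscle to at most 0.37 TPM with Ckm at 0. Adipocyte markers summed to at most 1.8 TPM in GC_WT, 0.3 TPM in FL_WT, 11.6 TPM in GC_KO and 9.57 TPM in FL_KO kidneys. The highest sums were thus in Nrf2-KO kidneys, whose lowest were 0.28 TPM in GC_KO and 0.2 TPM in FL_KO. RMS distances of a kidney from its own group, on log2(TPM + 1), ran from 0.21 to 0.35, with FL_KO mouse 11 the farthest.

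Cyp27b1, the enzyme that makes calcitriol, lies on the plus strand at chr10:127048250-127053006 (GRCm38), and no annotated gene overlaps it. The 250 bases before its start in RefSeq are shown because it is the member whose flight and ground kidneys separated completely. The capitals mark a CCAAT box, which reads ATTGG because it lies on the opposite strand, and a TATATA run close to the start.

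Cyp27b1, chr10:127047996-127048245, plus strand, GRCm38.p6: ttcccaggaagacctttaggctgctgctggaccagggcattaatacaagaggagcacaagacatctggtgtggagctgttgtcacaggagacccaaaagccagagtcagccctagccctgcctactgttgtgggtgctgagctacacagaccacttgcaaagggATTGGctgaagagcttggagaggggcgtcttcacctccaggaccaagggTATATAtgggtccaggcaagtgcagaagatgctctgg

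The CCAAT box lies 86 to 82 bases and the TATATA run 37 to 32 bases before the start. Among 32851 mouse promoter windows of 250 bases, 33.8% hold CCAAT and 5.25% hold TATATA on either strand. Searched on both strands, this window held none of the hexamers that nuclear receptors bind, namely AGGTCA (in 14.0% of all windows), GGGTCA (in 11.6%), AGTTCA (in 11.8%) and GGTTCA (in 8.85%). The cAMP response element TGACGTCA, which 1.55% of windows hold, was not found either. A pair of such hexamers in direct repeat with a spacer of 3 bases, the arrangement typical of vitamin D receptor sites, was in 0 of the 8 members' windows that the RefSeq table held and in 0.0396% of all windows. The core of the antioxidant response element, TGACNNNGC, through which Nrf2 acts, was in the window of S100g and in 10.2% of all windows. A match of letters is not a bound site, and these windows leave out enhancers.

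Cyp27b1 was lower in flight kidneys of both genotypes. In GC_WT kidneys it measured 7.38, 3.25 and 3.92 TPM, and in FL_WT kidneys 2.16, 0.53 and 1.12 TPM. In GC_KO kidneys it measured 10.44, 2.58 and 4.31 TPM, and in FL_KO kidneys 1.09, 1.95 and 0.81 TPM. All 6 flight kidneys lay below all 6 ground kidneys, with no overlap, as held for 0.377% of all genes tested. The difference averaged over genotypes was a log2 fold change of -2.11 ± 0.40 (SE), a 4.3-fold lower level (adjusted p = 0.0274, edgeR). It was -1.99 ± 0.57 in WT mice (adjusted p = 0.363) and -2.22 ± 0.57 in Nrf2-KO mice (adjusted p = 0.154), so that neither genotype alone passed the threshold. The signal rested on few reads, with 12 to 51 expected counts in flight and 60 to 247 in ground kidneys. Left out in turn, each of GC_WT mice 06 and 10, FL_WT mice 08 and 10 and FL_KO mouse 01 took the adjusted p to 0.053 to 0.0769, while over all 12 such fits the log2 fold change stayed between -2.43 and -1.73.

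Cyp24a1, the enzyme that degrades calcitriol, went the other way. It lies on the minus strand at chr2:170482708-170497145, where its 5′ end is overlapped by Pfdn4 on the opposite strand. Cyp24a1 measured 15.26, 27.71 and 29.75 TPM in GC_WT kidneys and 80.47, 185.7 and 109.2 TPM in FL_WT kidneys. The FL_WT kidneys lay above all 3 GC_WT kidneys, as held for 13.5% of all genes tested. Nrf2-KO kidneys were more spread, with 28.57, 10.02 and 3.37 TPM on the ground and 161.0, 64.35 and 20.33 TPM in flight, and the lowest flight kidney, mouse 11, lay within the range of the ground. Averaged over genotypes the log2 fold change was 2.40 ± 0.52 (SE), a 5.28-fold higher level (adjusted p = 0.0396, edgeR). In WT mice it was 2.29 ± 0.72 (adjusted p = 0.434) and in Nrf2-KO mice 2.51 ± 0.74 (adjusted p = 0.212). Counts ran from 116 to 6320, so counting error was small beside the spread between mice.

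The call on Cyp24a1 was near its threshold. Without GC_KO mouse 02 or FL_KO mouse 11 the adjusted p was 0.0217 and 0.00971, and without any of the other 10 mice it was 0.0656 to 0.117 (edgeR). The log2 fold change ran from 1.90, without FL_KO mouse 01, to 2.93, without GC_KO mouse 02. Pfdn4, which could share reads with Cyp24a1 if strand was not used in counting, measured 14.2 to 21.5 TPM over all 12 kidneys.

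**Figure D1:**
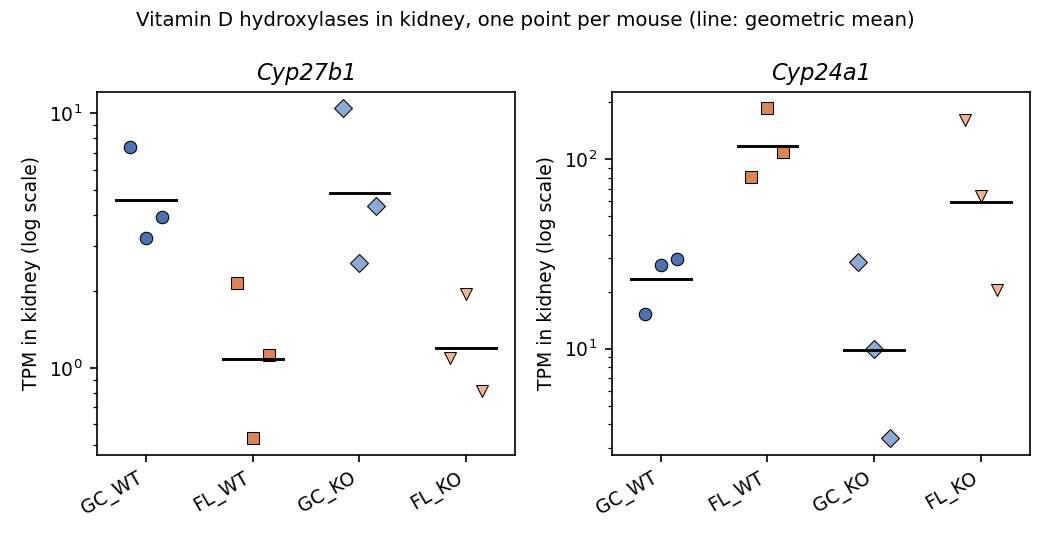
TPM of Cyp27b1 and Cyp24a1 in kidney on log axes, with a point for each mouse in the 4 groups and a line at the geometric mean of a group. All 6 flight kidneys lie below the ground kidneys in Cyp27b1, and in Cyp24a1 all but FL_KO mouse 11 at 20.33 TPM lie above them.

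Of the 10 genes, these 2 were called when flight was averaged over genotypes, 1 higher and 1 lower. Over all genes tested, 1.41% were called in this comparison, 0.503% higher and 0.906% lower. Because the 10 genes were chosen with earlier results of these data known, a share above that of all genes is not evidence about them as a set. None of the 10 was called in WT mice alone or in Nrf2-KO mice alone, where 0.119% and 0.159% of all genes were called. At an unadjusted p under 0.05 the edgeR test had Cyp27b1 and Cyp24a1 in WT mice and Cyp27b1, Cyp24a1, Kl, Calb1 and Slc34a3 in Nrf2-KO mice. Of all 15114 genes tested, 1003 in WT mice and 1941 in Nrf2-KO mice had such a p. DESeq2 called 0 in WT mice and 2, Kl and Calb1, in Nrf2-KO mice. The share of all genes that DESeq2 called is not given here, and the shares above are those of edgeR. The median log2 fold change of the 10 with flight averaged over genotypes was -0.16, against 0.004 for all genes tested.

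Within groups, no relation between the levels of both hydroxylases passed the test. After centring on the group means, Pearson's r of log2(TPM + 1) between Cyp27b1 and Cyp24a1 over the 12 kidneys was 0.158 (exact permutation p = 0.741, adjusted 0.741) and Spearman's rho -0.028 (exact permutation p = 0.952, adjusted 0.952). Without GC_WT mouse 06 and GC_KO mouse 02, the mice farthest from the median of Cyp27b1, r was -0.257 (exact permutation p = 0.576). Both genes differed between flight and ground, whereas an opposite ranking of mice within a group was not shown.

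**Figure D2:**
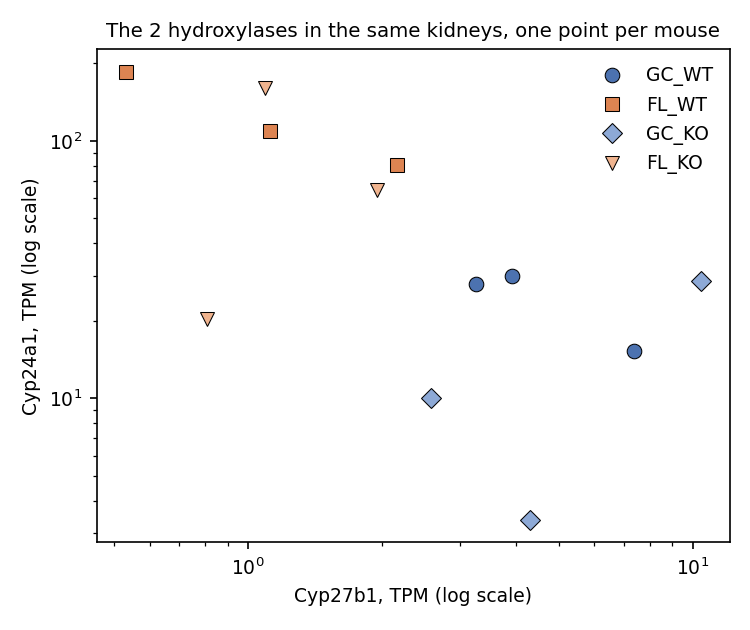
Cyp27b1 against Cyp24a1 in the same kidneys, TPM on log axes, with a point per mouse and a symbol per group. Flight kidneys lie at 0.53 to 2.16 TPM of Cyp27b1 and ground kidneys at 2.58 to 10.44 TPM, and no common slope is seen within the groups.

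Among the receptors, Vdr encodes the nuclear receptor through which calcitriol acts. It measured 97.89, 99.89 and 110.9 TPM in GC_WT, 136.2, 125.8 and 112.3 TPM in FL_WT, 103.0, 110.8 and 93.77 TPM in GC_KO and 147.0, 129.7 and 99.34 TPM in FL_KO kidneys. The 3 FL_WT kidneys lay above the 3 GC_WT kidneys, as in 13.5% of all genes tested, while FL_KO mouse 11 fell inside the ground range. The log2 fold change averaged over genotypes, 0.22 ± 0.11, did not pass the test (adjusted p = 0.36, edgeR). Vdr followed Cyp24a1 among mice of a group with r = 0.676 and rho = 0.58, which did not pass (exact permutation p = 0.0949 and 0.132, adjusted 0.362 and 0.471). Without FL_WT mouse 08 and GC_KO mouse 12 this r was 0.66 (exact permutation p = 0.236).

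Kl encodes Klotho, the co-receptor for the phosphate-lowering hormone FGF23. Its level was 219.1, 200.7 and 215.1 TPM in GC_WT, 200.7, 189.3 and 225.0 TPM in FL_WT, 226.4, 196.8 and 205.1 TPM in GC_KO and 150.3, 164.3 and 194.2 TPM in FL_KO kidneys. The FL_KO kidneys lay wholly below the GC_KO kidneys, as in 3.59% of all genes tested, and the WT groups overlapped. The log2 fold change was -0.25 ± 0.06 averaged over genotypes (adjusted p = 0.0784), -0.12 ± 0.09 in WT mice (adjusted p = 0.931) and -0.38 ± 0.09 in Nrf2-KO mice (adjusted p = 0.13), none of them called by edgeR. DESeq2 called the averaged and the Nrf2-KO difference (adjusted p = 0.00611 and 0.00523). Whether flight acted differently on Kl in the 2 genotypes was tested as an interaction, which was -0.26 ± 0.13 (adjusted p = 1.0, edgeR).

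Casr, the calcium-sensing receptor, which in kidney is best known from the thick ascending limb, was measured at a low level. It was 8.5, 7.8 and 10.71 TPM in GC_WT, 7.29, 9.45 and 6.25 TPM in FL_WT, 8.87, 9.19 and 9.0 TPM in GC_KO and 4.97, 8.35 and 9.93 TPM in FL_KO kidneys. Flight and ground kidneys overlapped, and the difference of -0.31 ± 0.14 on the log2 scale did not pass the test (adjusted p = 0.31, edgeR).

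Neither phosphate transporter passed the test. Slc34a1, the main sodium-phosphate cotransporter of the proximal tubule, was the most abundant of the 10 per transcript length. It measured 2727, 2446 and 2658 TPM in GC_WT, 2827, 2320 and 2682 TPM in FL_WT, 2735, 2494 and 2510 TPM in GC_KO and 2395, 2271 and 2431 TPM in FL_KO kidneys. The FL_KO kidneys lay below the GC_KO kidneys here too (3.59% of all genes tested), while the WT groups overlapped. The averaged log2 fold change was -0.14 ± 0.07 (adjusted p = 0.359, edgeR). Slc34a3, the second renal member of this family, measured 20.5 to 21.4 TPM in GC_WT, 19.3 to 22.4 TPM in FL_WT, 21.5 to 24.9 TPM in GC_KO and 16.2 to 26.1 TPM in FL_KO kidneys. FL_KO mice 01 and 02, at 17.13 and 16.23 TPM, were the lowest of all 12, and FL_KO mouse 11 at 26.05 TPM was the highest. Its averaged log2 fold change was -0.18 ± 0.09 (adjusted p = 0.36), which became -0.28 with an adjusted p of 0.026 once FL_KO mouse 11 was left out (edgeR). No relation of Slc34a1 and Slc34a3 within groups passed the test (r = 0.216 and rho = 0.266, exact permutation p = 0.398 and 0.393, adjusted 0.478 and 0.471), and r was 0.31 (exact permutation p = 0.0625) without FL_WT mouse 05 and FL_KO mouse 02.

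Of the calcium transport genes of the distal nephron, Calb1 had the largest fitted difference with flight, which edgeR did not call. Calb1 encodes calbindin-D28k, which buffers and carries calcium inside the cell. It was 88.79, 105.8 and 81.64 TPM in GC_WT, 85.99, 69.71 and 91.68 TPM in FL_WT, 123.3, 82.27 and 105.7 TPM in GC_KO and 69.42, 58.04 and 80.92 TPM in FL_KO kidneys. Calb1 was likewise lower in all 3 FL_KO than in all 3 GC_KO kidneys (3.59% of all genes tested), and its WT groups overlapped. The log2 fold change was -0.44 ± 0.11 averaged over genotypes (adjusted p = 0.0678), -0.23 ± 0.15 in WT mice (adjusted p = 0.898) and -0.65 ± 0.15 in Nrf2-KO mice (adjusted p = 0.13), with an interaction of -0.42 ± 0.22 (adjusted p = 1.0, edgeR). DESeq2 called the averaged and the Nrf2-KO difference (adjusted p = 0.00328 and 0.00409).

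Trpv5, the calcium entry channel, and S100g, which encodes calbindin-D9k, did not pass the test on counts. Trpv5 measured 7.61 to 8.16 TPM in GC_WT, 7.09 to 8.66 TPM in FL_WT, 7.39 to 8.99 TPM in GC_KO and 9.55 to 10.15 TPM in FL_KO kidneys, so that the FL_KO kidneys were above the others in TPM. FL_KO kidneys lay above GC_KO kidneys in 13.1% of all genes tested. On counts its log2 fold change in Nrf2-KO mice was 0.12 ± 0.11 (adjusted p = 0.707) and averaged over genotypes 0.04 ± 0.08 (adjusted p = 0.845, edgeR). S100g measured 583 to 852 TPM in GC_WT, 589 to 681 TPM in FL_WT, 589 to 924 TPM in GC_KO and 635 to 879 TPM in FL_KO kidneys, with an averaged log2 fold change of -0.12 ± 0.13 (adjusted p = 0.722, edgeR). S100g lies inside the span of Ctps2 on the opposite strand, which measured 20.8 to 27.5 TPM.

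Within groups the 3 calcium transport genes were not shown to rise and fall together. Pearson's r was 0.459 for Calb1 and S100g, 0.493 for Calb1 and Trpv5 and 0.464 for Trpv5 and S100g, with exact permutation p = 0.242, 0.22 and 0.187 and an adjusted p of 0.362 in each. Spearman's rho was 0.42, 0.399 and 0.336, with exact permutation p = 0.291, 0.299 and 0.361 and an adjusted p of 0.471 in each. Without the 2 mice farthest from the median of the gene named before the other, r was 0.316, 0.408 and 0.423 (exact permutation p = 0.438, 0.403 and 0.333). Adjusted values are over the 6 relations examined.

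**Figure D3:**
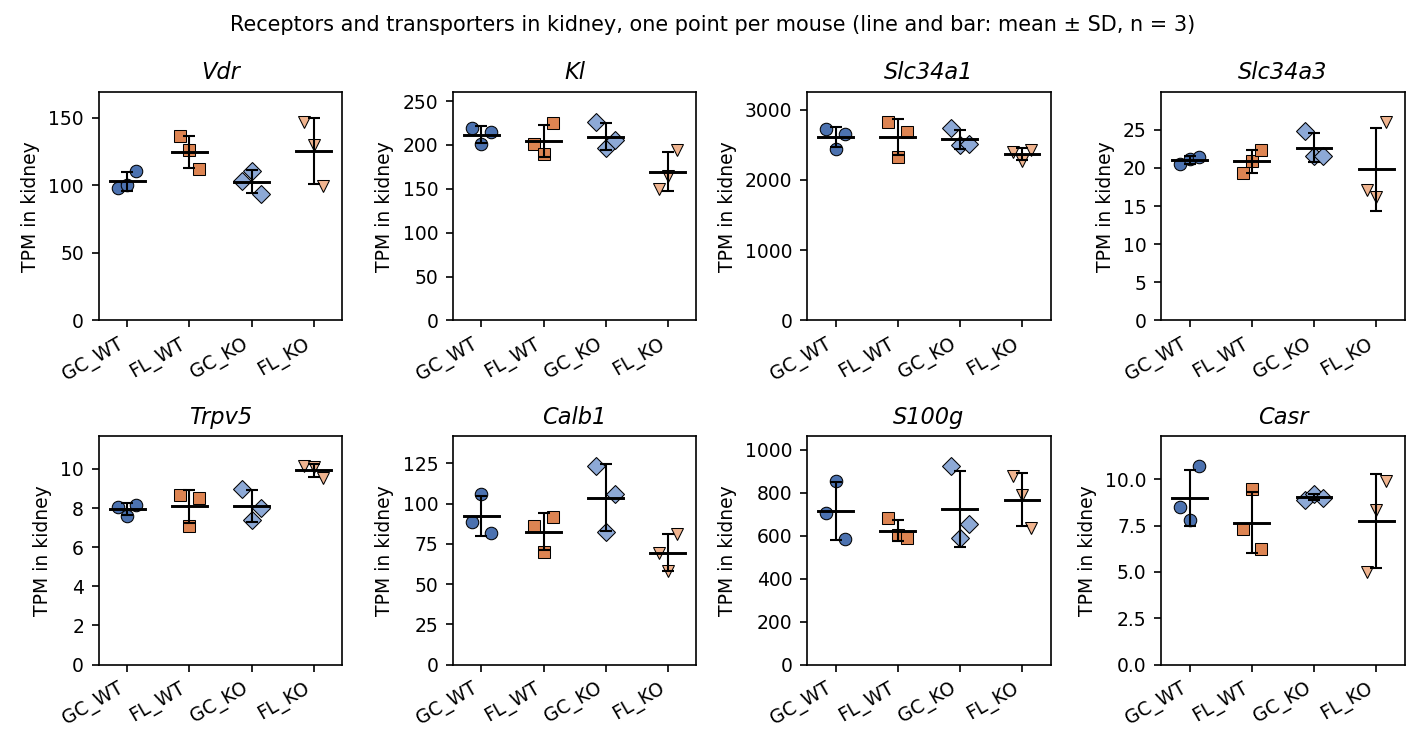
TPM in kidney of the 8 receptor and transporter genes, with a point per mouse, a line at the group mean and a bar of ± SD (n = 3), on linear axes from 0. FL_KO kidneys lie below GC_KO kidneys in Kl, Slc34a1 and Calb1 (3.59% of all genes tested do so) and above them in Trpv5 (13.1% do so), while flight and ground kidneys overlap in each of the 8 genes when the genotypes are pooled.

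**Figure D4:**
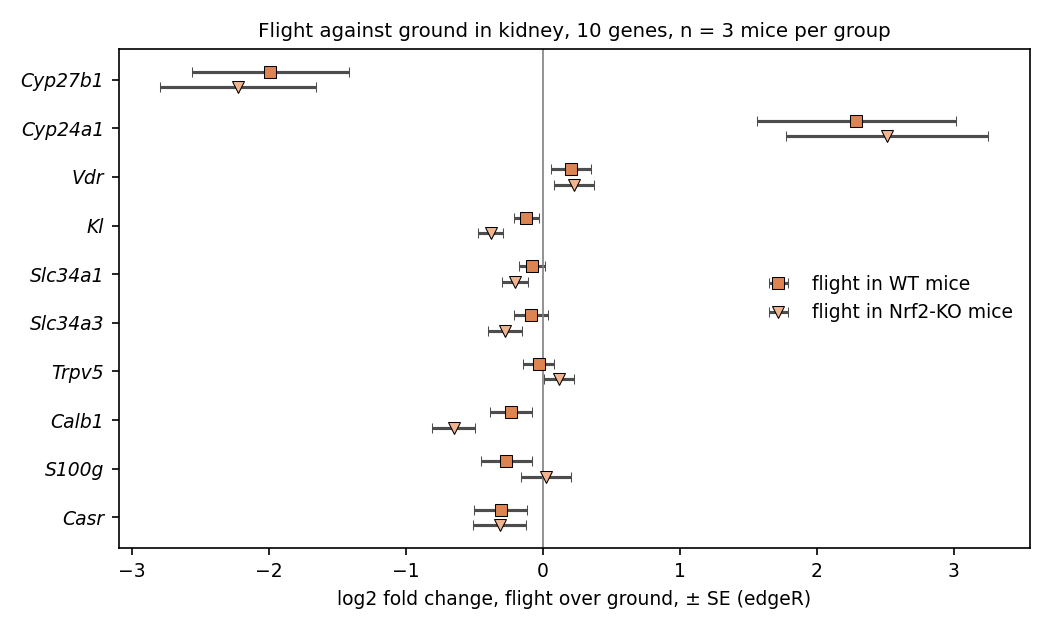
Log2 fold change of flight over ground in kidney for the 10 genes with its SE, squares for WT and triangles for Nrf2-KO mice, from counts with edgeR. Cyp27b1 at -1.99 and -2.22 and Cyp24a1 at 2.29 and 2.51 stand apart from the other 8 genes, which lie between -0.65 and 0.23.

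None of the 10 genes was called between genotypes in kidney. On the ground 1.61%, in flight 1.83% and averaged over both 4.59% of all genes tested were called between Nrf2-KO and WT kidneys, and 0 of the 10 in each. Averaged over flight and ground, 1 of the 10, Kl, had an unadjusted p under 0.05 (log2 fold change -0.16 ± 0.06, adjusted p = 0.197, edgeR). Of all 15114 genes tested, 2763 had such a p. In flight, Kl was lower by a log2 fold change of -0.29 ± 0.09 in Nrf2-KO kidneys (adjusted p = 0.153, edgeR), and this was the 1 difference between genotypes in flight that DESeq2 called. On the ground 0 of the 10 and 1645 of the 15114 genes tested had an unadjusted p under 0.05 (edgeR), and DESeq2 called 0 of the 10. The shares of all genes above are those of edgeR, and those of DESeq2 are not given here, so its counts have no background beside them. Cyp27b1 differed between genotypes by 0.11 ± 0.41 and Cyp24a1 by -0.69 ± 0.50 on the log2 scale, SEs that leave room for differences of 2-fold.

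No interaction of flight and genotype was called, neither among the 10 nor among all genes tested (0.0%, with 511 genes at an unadjusted p under 0.05). For Cyp27b1 the interaction was -0.24 ± 0.82 and for Cyp24a1 0.22 ± 0.99 on the log2 scale (adjusted p = 1.0 for both, edgeR). With such errors, a flight response that differed 2-fold between genotypes was not detectable.

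The wider pathway was described by 6 lists with 52 further genes, of which 48 passed the filter on low counts. Fgf23 and Pth, whose hormones come from bone and the parathyroid gland, were at 0 in all 12 kidneys. With flight averaged over genotypes, 1 of the 48 was called higher and 1 lower, beside 0.503% higher and 0.906% lower over all genes tested, and the median log2 fold change was -0.026. By list, the median was 0.019 for 10 genes of vitamin D supply and signalling, -0.015 for 8 tested genes of parathyroid hormone and FGF23 signalling and -0.098 for 9 tested phosphate transport genes, with 0 called in each. It was 0.020 for 7 tested genes of transcellular calcium transport, 1 of them called lower, 0.047 for 7 of paracellular transport, 1 of them called higher, and -0.102 for 7 of magnesium transport, of which 0 were called. Cldn2, the claudin that forms cation and water pores in the proximal tubule, measured 209.8, 192.4 and 201.9 TPM in GC_WT, 240.0, 263.7 and 237.8 TPM in FL_WT, 194.9, 178.4 and 181.6 TPM in GC_KO and 231.5, 228.4 and 238.5 TPM in FL_KO kidneys. All 6 flight kidneys lay above all 6 ground kidneys in Cldn2, as held for 1.78% of all genes tested, with a log2 fold change of 0.24 ± 0.05 (adjusted p = 0.0328, edgeR). Slc8a1, the sodium-calcium exchanger that extrudes calcium from distal tubule cells, was lower by a log2 fold change of -0.43 ± 0.09 (adjusted p = 0.0431, edgeR). Its level was 16.4 to 20.5 TPM in GC_WT, 15.5 to 17.4 TPM in FL_WT, 17.0 to 21.4 TPM in GC_KO and 8.33, 11.73 and 17.01 TPM in FL_KO kidneys. Neither call held under all settings. With a replicate block the adjusted p was 0.645 for Cldn2 and 0.6 for Slc8a1 (edgeR). That block compares flight with ground only through kidneys of different animals that share a number, so no conclusion is drawn from it. Limma, which called Cldn2, gave an adjusted p of 0.151 for Slc8a1 on log2(TPM + 1). Leaving out single mice put the adjusted p of Cldn2 between 0.0214 and 0.0909 (edgeR). Its call was lost in 9 of 12 such fits and kept only without GC_KO mouse 02, FL_WT mouse 10 or FL_KO mouse 11. For Slc8a1 the adjusted p was between 0.00434 and 0.125 (edgeR). Its call was lost in 11 of 12 fits and kept only without FL_KO mouse 11.

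The next genes of these lists by p did not pass the test. Gc, the vitamin D binding protein, had a log2 fold change with flight of 0.69 ± 0.16 (adjusted p = 0.0623). Stc1, which encodes the calcium-regulated hormone stanniocalcin, had 0.85 ± 0.21 (adjusted p = 0.0741, edgeR). Stc1 was 1.37 to 2.01 TPM in the 6 ground and 2.24 to 5.7 TPM in the 6 flight kidneys. Flight thus lay above ground without overlap, as held for 1.78% of all genes tested. In WT and in Nrf2-KO mice alone 0 of the 48 were called.

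Among the 48 pathway genes, Gc was called by genotype both on the ground and averaged, with more exceptions on the ground. It measured 11.33, 11.58 and 11.17 TPM in GC_WT, 13.69, 18.93 and 17.94 TPM in FL_WT, 4.63, 6.32 and 5.05 TPM in GC_KO and 8.45, 6.91 and 16.12 TPM in FL_KO kidneys. FL_KO mouse 11 alone among the Nrf2-KO kidneys reached WT levels. Averaged over flight and ground, Gc was lower in Nrf2-KO kidneys by a log2 fold change of -0.90 ± 0.16 (adjusted p = 0.00593), and on the ground by -1.10 ± 0.24 (adjusted p = 0.0376, edgeR). The averaged call held in 12 of 12 fits that left out a mouse. The ground call was lost in 8 of 12, namely without any of the 6 ground mice or without FL_WT mouse 08 or 10, with an adjusted p of up to 0.17, and with limma on log2(TPM + 1), at 0.0681. Cnnm2, a magnesium transport protein of the distal nephron, was lower by -0.27 ± 0.05 (adjusted p = 0.00593). It measured 16.3 to 18.4 TPM in the 6 WT and 13.8 to 15.1 TPM in the 6 Nrf2-KO kidneys, without overlap, as held for 1.65% of all genes tested. Slc34a2, a phosphate transporter of intestine and lung that is scarce in kidney, was higher by 0.79 ± 0.15 (adjusted p = 0.00746, edgeR), with 0.60 to 0.78 TPM in WT and 0.87 to 1.4 TPM in Nrf2-KO kidneys, also apart, as in 1.07% of all genes tested. Cubn, which encodes the endocytic receptor cubilin, had -0.23 ± 0.06 and did not pass (adjusted p = 0.0791, edgeR). Of the 48, 1 higher and 2 lower were called in this comparison, where 4.59% of all genes were, 1 lower on the ground (1.61%) and 0 in flight (1.83%). Klk1, a member of the transcellular list with near-identical paralogs, was not interpreted.

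In these bulk samples, fewer cells of a type and less RNA per cell cannot be told apart. Of the markers of the S1 and S2 proximal tubule, 0 of 6 were called with flight, and their summed level was 1094 to 1236 TPM in ground and 946 to 1285 TPM in flight kidneys. Of 5 markers of the S3 segment, 2 were called lower, Slc22a7 at -1.01 ± 0.14 and Cyp7b1 at -0.44 ± 0.08 on the log2 scale (adjusted p = 0.00508 and 0.0183, edgeR). Only 1 of the 5 had a log2 fold change above 0, and their sums were 759 to 1060 TPM in ground and 548 to 992 TPM in flight kidneys. Distal convoluted tubule markers, 0 of 4 called, summed to 232 to 281 TPM in ground and 259 to 308 TPM in flight kidneys, and 0 of 7 markers of connecting tubule and principal cells were called. Podocyte markers, 0 of 5 called, had a median log2 fold change of 0.276 with flight. All 5 erythroid markers had a log2 fold change below 0 with flight (median -0.748), and 4 were called lower. Their sums were 944 to 1308 TPM in ground and 546 to 994 TPM in flight kidneys. All 5 proliferation genes were below 0 as well (median -1.262), of which Mki67 and Top2a were called. Of 5 stromal markers, the collagens Col1a1 and Col3a1 were called lower, whereas Ren1 had a log2 fold change of 0.66 ± 0.15 (adjusted p = 0.0563, edgeR), and the stromal sum was 68.1 to 117 TPM in ground and 81.8 to 152 TPM in flight kidneys. Over all genes tested, 0.503% were called higher and 0.906% lower with flight. By genotype, averaged over flight and ground, 4.59% of all genes were called. Called higher were 1 of 7 connecting tubule and principal cell markers and 1 of 5 stromal markers. Called lower were 2 of 5 S3 markers, 1 of 6 S1 and S2 markers and 1 of 4 leukocyte markers tested. The part of these shifts in the differences of Cyp27b1, Cyp24a1, Gc, Cnnm2 and Slc34a2 was not tested.

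Where the 10 genes are read was compared over the 9 tissues in GC_WT mice. For 9 of the 10, kidney held the highest mean TPM, and its mice did not overlap those of the next tissue. Slc34a1 measured 2610 ± 146 TPM in kidney (SD, n = 3) against 1.02 ± 0.22 TPM in cerebrum (n = 6), and S100g 713 ± 135 TPM in kidney against 2.22 ± 0.58 TPM in mandibular bone (n = 3). Cyp24a1 was listed at 0 in all mice of the 4 groups in liver, spleen and white adipose tissue, and its highest value outside kidney was 0.24 TPM in temporal bone. Cyp27b1 was 4.85 ± 2.22 TPM in kidney and 0.86 ± 0.43 TPM in mandibular bone. Trpv5, Slc34a3 and Casr had their next highest means in temporal bone, at 0.18, 0.165 and 0.973 TPM, and those values overlapped with the tissue ranked after it.

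Calb1 was the exception. It measured 525 ± 188 TPM in mandibular bone (n = 3), 92.1 ± 12.4 TPM in kidney (n = 3), 62.3 ± 4.2 TPM in cerebrum (n = 6) and 57.8 ± 54.9 TPM in temporal bone (n = 6), and cerebrum and temporal bone overlapped. Vdr ranked kidney at 103 ± 7.0 TPM, mandibular bone at 46.4 ± 5.7 TPM and temporal bone at 10.9 ± 2.0 TPM, each apart from the next, and was at most 2.8 TPM in every mouse of the other 6 tissues. Kl was 212 ± 9.7 TPM in kidney, 15.3 ± 4.7 TPM in cerebrum and 8.77 ± 8.66 TPM in temporal bone, the last 2 overlapping. Thymus libraries were made from RNA depleted of ribosomal RNA and the rest from poly(A) RNA, so levels in thymus were not set against the other tissues by a test.

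**Figure D5:**
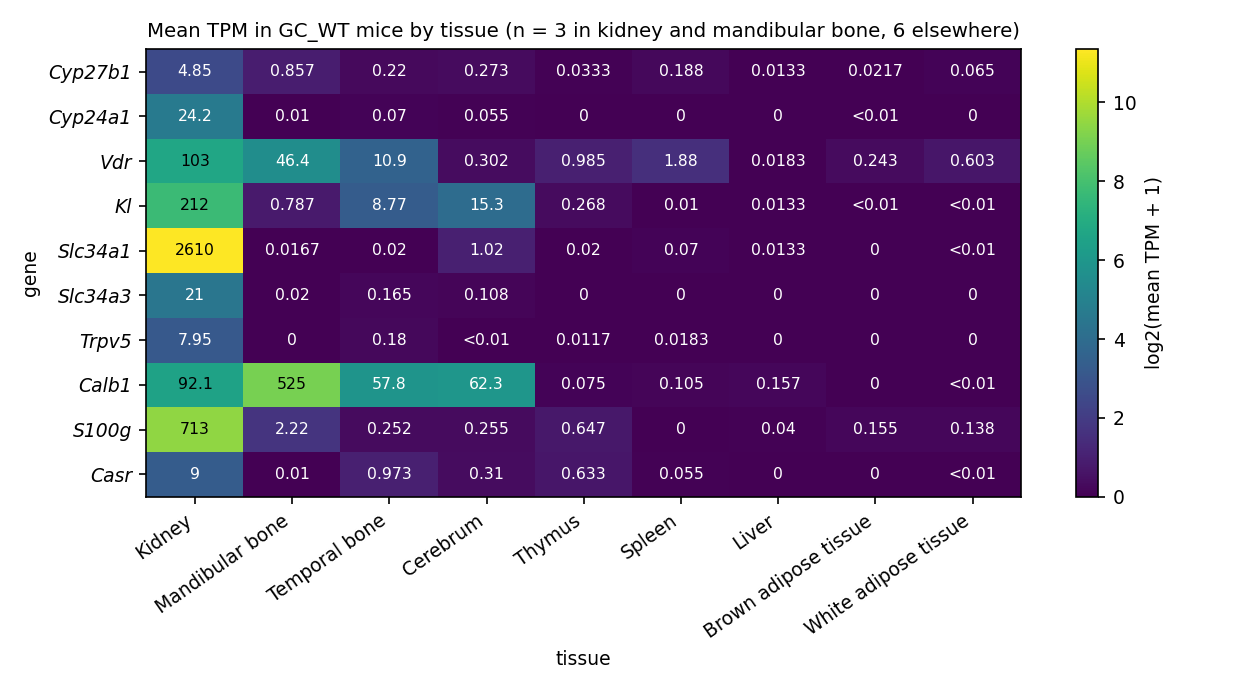
Mean TPM of the 10 genes in GC_WT mice in the 9 tissues, printed in each cell and coloured by log2(mean TPM + 1). Kidney has the highest mean for 9 genes, and Calb1 has its highest, 525 TPM, in mandibular bone.

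The genes with the profile most like each member over the 9 tissue means of GC_WT mice were ranked by the root mean square difference of log2(TPM + 1), among 13406 genes. Slc34a1 was nearest to Miox (0.05) and Acsm2 (0.383), and S100g to Mep1a (0.583) and Spink1 (0.596). Kl was nearest to Folr1 (0.429) and Slc22a8 (0.436), Vdr to Aqp3 (0.675), and Calb1 to Car12 (0.888) and Kcnk1 (1.06). Slc34a3 had Cyp24a1 as its nearest gene (0.0654), followed by 0610006L08Rik (0.0871). Cyp24a1 was nearest to Gm15217 (0.0461) and Atp6v1g3 (0.0576), Cyp27b1 to Fancd2os (0.111) and Psca (0.135), Trpv5 to Slc28a1 (0.0717) and Gm42397 (0.0746), and Casr to Abca13 (0.244) and Gm6999 (0.255). For genes read at a few TPM in kidney and near 0 elsewhere, this measure mainly matches the kidney level.

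Outside kidney, 20 pairs of member and tissue passed the filter on low counts in 7 tissues, and none in liver. There were 6 mice per group, or 3 in mandibular bone, and flight mouse 04 was left out, which made 5 FL_KO mice, or 2 in mandibular bone. Flight averaged over genotypes was called in 4 of the 20 pairs, all higher, in brown adipose tissue and thymus. There, 44.0% and 48.7% of all genes tested were called, so a call was common. In white adipose tissue 22.0%, in spleen 8.09%, in cerebrum 0.0488% and in both bones 0.0% of all genes were called, and no member was.

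Vdr in brown adipose tissue was very low, with 0.19 to 0.29 TPM in GC_WT, 0.50 to 1.14 TPM in FL_WT, 0.09 to 0.33 TPM in GC_KO and 0.46 to 1.19 TPM in FL_KO mice. Flight mice lay above ground mice without overlap, as in 10.8% of all genes tested there, and the log2 fold change was 1.51 ± 0.22 (adjusted p = 9.22e-06, edgeR). In thymus, Vdr had a log2 fold change of 0.64 ± 0.11 (adjusted p = 3.17e-05), with a median of 0.955 TPM in GC_WT, 1.75 TPM in FL_WT, 1.12 TPM in GC_KO and 1.94 TPM in FL_KO mice. S100g in thymus was higher by 1.48 ± 0.24 on the log2 scale (adjusted p = 1.64e-05), from medians of 0.74 and 0.655 TPM on the ground to 1.57 and 2.93 TPM in flight. Casr in thymus had 0.63 ± 0.24 (adjusted p = 0.0293, edgeR), and this call was lost without FL_KO mouse 02 (adjusted p = 0.051), without FL_KO mouse 11 (0.0912) or with flight mouse 04 included (0.0523). The hydroxylases reached the test outside kidney only as Cyp27b1 in mandibular bone, where the flight difference was -0.03 ± 0.28 on the log2 scale (adjusted p = 0.992, edgeR).

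By genotype, averaged over flight and ground, 0 of the 20 pairs were called, and 0 had an unadjusted p under 0.05. DESeq2 also called 0. The share of all genes that edgeR called was 11.4% in thymus, 3.77% in white adipose tissue, 3.61% in spleen, 3.3% in brown adipose tissue, 1.81% in cerebrum, 0.513% in mandibular bone and 0.363% in temporal bone.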

How the data were processed

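The authors sequenced strand-specific poly(A) RNA libraries (thymus: libraries depleted of ribosomal RNA) and deposited, per gene, expected counts from RSEM 1.3.1 after STAR 2.6.1 alignment to mm10, with TPM values from the same run. The deposited FPKM values (192 columns) were not used, and the strand setting of RSEM is not given in the sources used here. Here, expected counts were rounded and tested with edgeR 4.0.16 (R 4.3.3; quasi-likelihood, TMM, genes filtered by group), with the 4 groups of a tissue in one fit and Benjamini-Hochberg adjustment over all genes of that tissue. The fits were repeated with limma 3.58.1 for genes of at least 5 TPM in a group (log scale with 1 or 0.1 added to TPM), DESeq2 1.42.0, RLE factors, no filter, fewer groups, a replicate block and single mice left out (every kidney mouse, and elsewhere the mice of groups of 5 or fewer). TPM medians over genes were shifted by 0.0646 on the log2 scale with flight. Promoter windows came from RefSeq, where 8 of the 10 genes matched, and positions from GENCODE. The members and lists were chosen with earlier results of these data known. All 10 genes are named, together with Nfe2l2, the pathway genes that were called, the 4 with the smallest p for flight and for genotype, and markers that were called. P-values of the fits set a difference against the spread between mice within groups. That spread does not contain place, season, landing or any difference in diet.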

Additional observations from a re-analysis of the deposited data

Results flagged for a closer look

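The members were examined for single mice far from the rest of their group in 40 groups of 5 or 6 mice outside kidney, by Dixon's test. Groups of 3 or fewer, in kidney and mandibular bone, were too small for it. In temporal bone, Kl measured 14.7 TPM in GC_KO mouse 01 against 3.07 to 5.44 TPM in the other mice of that group. In cerebrum, Slc34a1 measured 5.47 TPM in FL_KO mouse 11 against 0.51 to 0.90 TPM in the others. Chance alone marks about 1 in 20 groups, and 2 of 40 were marked.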

How the results depend on the processing

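Cyp27b1 stayed lower and Cyp24a1 higher with flight averaged over genotypes, and both stayed called, under every alternative other than leaving out single mice. Of the 12 fits that left out a mouse, the call was lost in 5 for Cyp27b1 and in 10 for Cyp24a1. The replicate block compares flight with ground only through kidneys of different animals that share a number. Calls kept, gained or lost under the block are therefore not read as a result. The number of kidney members called moved as follows. In WT mice 0 became 2 with no filter, 1 with only the groups of the contrast and 1 with a replicate block. In Nrf2-KO mice 0 became 2 with DESeq2, 4 with no filter and 2 with the block. Averaged over genotypes 2 became 4 with DESeq2 and 4 with no filter, and by genotype in flight 0 became 1 with DESeq2. Of the pathway genes, flight in Nrf2-KO mice went from 0 to 3 with DESeq2 and 2 with no filter. Flight averaged went from 2 to 4 with DESeq2, 4 with no filter, 1 with limma at either pseudocount and 1 with the block. Genotype on the ground went from 1 to 0 with limma at either pseudocount, and genotype in flight from 0 to 1 with no filter. In the other tissues, the 4 members called with flight became 0 with limma, whose filter removed them, and 2 with flight mouse 04 included, when S100g in thymus no longer passed the filter and Casr in thymus was not called. Except where the filter itself gives it, the cause was not tested. Shares of all genes called under these settings are not given here, so these counts have no background beside them.

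Leaving out each kidney mouse in turn gave 0 to 0 members called for flight in WT mice, 0 to 4 in Nrf2-KO mice and 0 to 5 averaged, 5 without FL_KO mouse 11, and 0 to 0 in the genotype and interaction comparisons. Pathway genes called ran from 0 to 1 for flight in Nrf2-KO mice, 0 to 3 averaged, 0 to 1 for genotype on the ground, 0 to 2 in flight and 3 to 4 averaged, and in the other tissues 3 to 4 members were called with flight. Correlations ran from -0.364, without GC_KO mouse 02, to 0.293 for Cyp27b1 and Cyp24a1, 0.413 to 0.806 for Cyp24a1 and Vdr, 0.21 to 0.799 for Calb1 and S100g, 0.285 to 0.663 for Calb1 and Trpv5, 0.141 to 0.667 for Trpv5 and S100g, and 0.092 to 0.419 for Slc34a1 and Slc34a3. The last was -0.014 on log2 CPM with TMM factors.

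Flight and ground mice share numbers only by name. Only number 10 in WT mice and numbers 02 and 11 in Nrf2-KO mice occur in both flight and ground kidneys. Deviations of these same-numbered kidneys correlated at 0.025, 0.276 and 0.122. The replicate block compares flight with ground only through these kidneys of different animals, so no conclusion is drawn from its results. With the block, the log2 fold change of Vdr with flight averaged over genotypes was -0.042. The low counts of Cyp27b1 in flight kidneys limit the precision of its fold change.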

Other observations

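The ratio of Cyp24a1 to Cyp27b1 TPM within a kidney, chosen after the values were seen and therefore given without a test, sets breakdown against production of calcitriol at the level of transcripts. It was 2.07, 8.53 and 7.59 in GC_WT, 37.3, 350 and 97.5 in FL_WT, 2.74, 3.88 and 0.782 in GC_KO and 148, 33.0 and 25.1 in FL_KO kidneys. All 6 flight kidneys lay above all 6 ground kidneys, including FL_KO mouse 11, whose Cyp24a1 alone lay within the ground range. The ratio is built from both called hydroxylases, and Cyp27b1 alone already separated flight from ground. The separation of the ratio is therefore no further evidence.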
